A study of Saccharomyces cerevisiae with 9 samples.

Results

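Transcripts of the ergosterol pathway were followed in baker's yeast recovering from a freeze. The set held 30 genes chosen by symbol. They were the enzymes from acetyl-CoA to ergosterol, their electron donors CYB5 and NCP1, the sterol acyltransferases ARE1 and ARE2, and the regulators UPC2 and ECM22. Of these, 28 had a gene-assigned spot on both array platforms used, among 5189 genes in all. HMG2, an isoform of HMG-CoA reductase, and ERG11, the lanosterol demethylase, were not analysed here. The recovering cultures were Saccharomyces cerevisiae S288C, a laboratory strain, grown in rich YPD medium at 30 °C to an absorbance of 1.0. They spent 1 week at -80 °C as 400 ml of unprotected culture and were then brought back to 30 °C by a thaw of 25 min. Samples came 15, 30 or 60 min after the end of the thaw. The reference was a 200 ml aliquot of a culture of the same description, taken before freezing. Each time point had 3 two-channel arrays, described in the series as independent biological samples, with the recovering cells in Cy5 and the culture before freezing in Cy3.

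Ergosterol is the main sterol of yeast membranes, where it sets fluidity and order as cholesterol does in animal cells. Its synthesis starts with the mevalonate pathway, passes through farnesyl diphosphate and squalene, and ends in a series of reactions on the sterol ring and side chain in the endoplasmic reticulum. Squalene epoxidation and several of the later steps consume molecular oxygen, and some of the later enzymes carry heme or iron. Upc2 and Ecm22 are related zinc-cluster factors that activate many ERG genes when sterols are low, and spare sterol is stored as esters made by Are1 and Are2.

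Values are log2 ratios of recovering cells over the culture before freezing. That direction is likely from the labels and not stated in the tables, and every sign below would turn in the other case. An array had values for 2603 to 5087 genes, and array medians lay between -0.18 and 0.05. Replicate 1 of every time point was on one platform and replicates 2 and 3 on the other. A gene was tested at a time point when all 3 arrays had a value, with limma across all genes, and passed at a Benjamini-Hochberg adjusted p under 0.05. Errors marked ± are limma standard errors (n = 3). They rest on 1 variance per gene shared by the 3 times, not on the arrays of 1 time alone. ERG1 thus had an error of 0.31 throughout, while its arrays had an SD of 1.01 at 60 min, against 0.0923 at 15 min. For ERG29 the SD was lower at 60 min (0.0966) than at 30 min (0.69). Where a gene spread more at 60 min than before, its ± there understates that spread. Over all genes, replicates 1 and 2 of 60 min were the most spread arrays (SD 1.02 and 0.99). RNA came from whole cultures, so fewer cells with a transcript and less of it in each cell cannot be told apart. It is not given whether several arrays used RNA of 1 culture before freezing, and a test of the ratio against 0 leaves out the spread of those cultures.

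The sterol genes as a set lay slightly below their level before freezing early in recovery and split into higher and lower genes at 60 min. On the 3 arrays at 15 min, 68.4%, 68% and 78.6% of the sterol genes with a value were below 0, against 48.8%, 51.2% and 51.1% of all genes. At 30 min the shares were 77.8%, 66.7% and 85.2% of the sterol genes, against 49.4%, 50.8% and 52.9% of all genes. At 60 min they were 43.5%, 64% and 53.8%, against 50.4%, 57.5% and 46.8% of all genes. The excess of sterol genes below 0 was thus present on all 6 early arrays and, at 60 min, smaller on replicates 2 and 3 and absent on replicate 1.

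Few of these early shifts passed the test. At 15 min 0 of 19 tested sterol genes passed in either direction in limma, where 0.838% of all genes passed as higher and 0.326% as lower, and 2 (ERG3 and ERG26) were lower at an unadjusted p under 0.05. At that level 9.54% of all genes were lower and 7.91% higher. The median of the 19 was -0.28, against -0.0534 for all genes tested. At 30 min 1 of 25 passed as lower, where 2.05% of all genes did so, and 0 as higher (2.29% of all genes). With CYB5, which passed, ERG25 made 2 that were lower at an unadjusted p under 0.05, where 10.4% of all genes were lower and 7.92% higher. The median of the 25 was -0.20, against -0.0799 for all genes. Of the 25 means 23 were below 0 (22 with each array centred on its median), where 57.4% of all genes tested were. All 3 arrays were below 0 for 9 of 19 genes at 15 min (20.8% of all genes) and 10 of 25 at 30 min (25.5%). By contrast 0 sterol genes had all 3 arrays above 0 at either time (15.1% and 19.3% of all genes).

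At 60 min 3 of 20 tested sterol genes were higher and 4 lower, where 15.6% of all genes were higher and 17.5% lower. Shares of 15% and 20% are near those backgrounds, so the number of sterol genes that changed was not unusual for that time. ERG28, ERG1 and ERG3 rose, and IDI1, CYB5, ERG6 and ERG20 fell. The median of the 20 was -0.0605, against -0.0563 for all genes. All 3 arrays were above 0 for 6 of the 20 (26.8% of all genes) and below 0 for 6 (32.6%), again near the background. At an unadjusted p under 0.05 there were 5 higher and 5 lower, where 20.2% and 23.5% of all genes were.

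**Figure D1:**
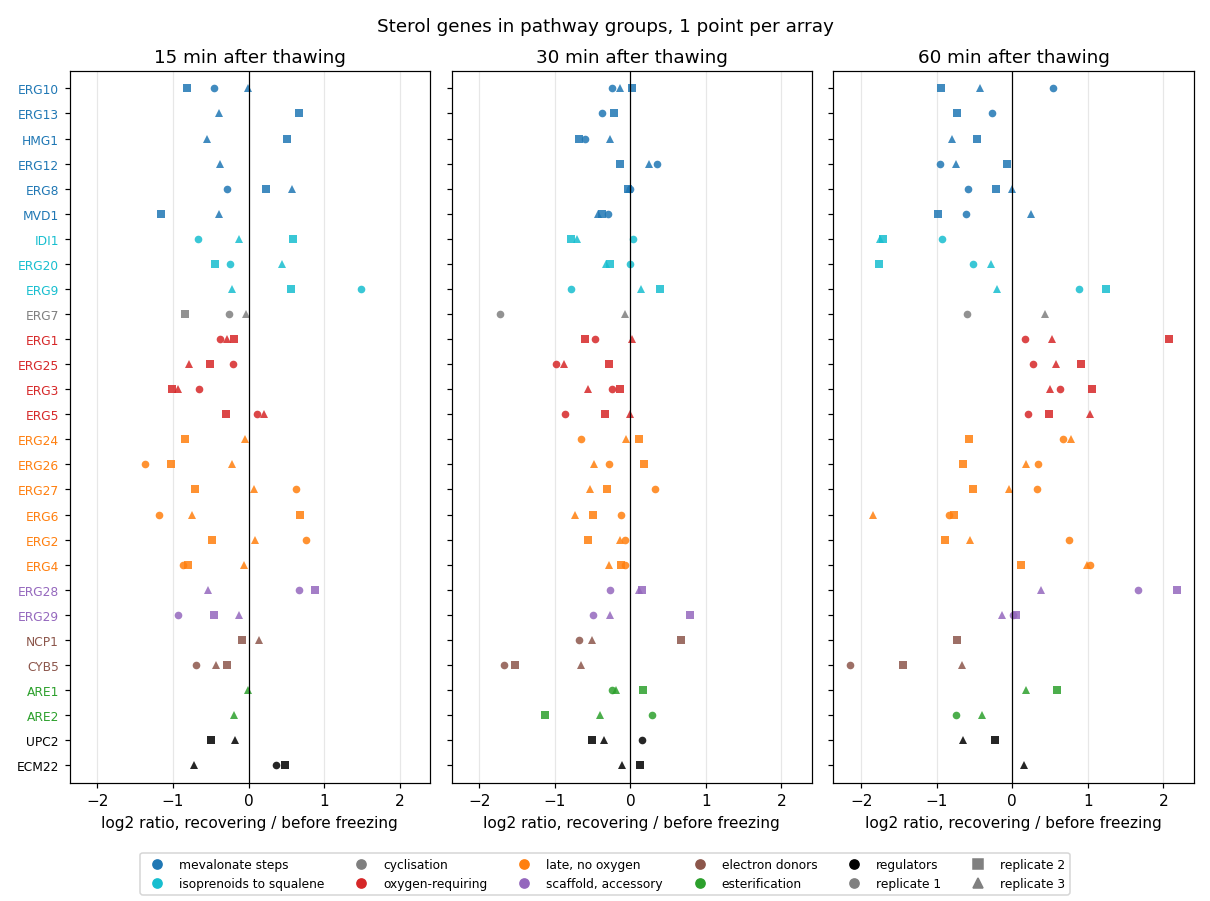
Log2 ratio (recovering over before freezing, horizontal axis) of 28 sterol genes in pathway order on the 3 arrays at 15, 30 and 60 min after thawing. Colours mark pathway groups, and circles, squares and triangles replicates 1, 2 and 3; the 4 oxygen-requiring genes (red) lie right of 0 on all 3 arrays at 60 min and mostly left of 0 before.

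The mevalonate steps turn acetyl-CoA into isopentenyl diphosphate, and 0 of their transcripts passed the test in limma at any of the 3 times. Only 2, 5 and 4 of them were tested at 15, 30 and 60 min, too few for that count to tell much. Of all genes 0.838% passed as higher and 0.326% as lower at 15 min, and 2.29% and 2.05% at 30 min. At 60 min the shares were 15.6% and 17.5%. ERG10, acetoacetyl-CoA thiolase, the first step, was at -0.45, -0.82 and -0.0006 on the 3 arrays at 15 min, at -0.24, 0.0261 and -0.14 at 30 min, and at 0.54, -0.94 and -0.43 at 60 min. Its arrays lay on both sides of 0 at 30 and 60 min. HMG1, HMG-CoA reductase, the controlled step of the pathway (YML075C), was at -0.60, -0.69 and -0.27 at 30 min (mean -0.52 ± 0.29, adjusted p = 0.340). All 3 arrays were below 0 there, as were the 2 with a value at 60 min, at -0.47 and -0.80 in replicates 2 and 3. At 15 min its 2 arrays were at 0.51 and -0.54, on opposite sides of 0. Whether the HMG1 spot also bound HMG2 transcript is not given in the sources used here.

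The next mevalonate enzymes were mostly below 0 at 60 min. ERG12, mevalonate kinase, was at 0.35, -0.14 and 0.25 at 30 min and at -0.95, -0.0707 and -0.74 at 60 min (mean -0.59 ± 0.29, adjusted p = 0.113). ERG8, phosphomevalonate kinase, was at -0.29, 0.23 and 0.57 at 15 min, at -0.0115, -0.0317 and -0.0123 at 30 min and at -0.58, -0.21 and -0.0091 at 60 min (mean -0.27 ± 0.27, adjusted p = 0.474). Both genes had all 3 arrays below 0 at 60 min, with 1 array each close to 0.

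MVD1, the decarboxylase that ends this section, was at -0.29, -0.38 and -0.43 at 30 min and at -0.61, -0.98 and 0.25 at 60 min. ERG13, HMG-CoA synthase, had 2 arrays per time point and was at -0.26 and -0.73 at 60 min. Over the section 4 genes were tested at 60 min, with means from -0.59 to -0.27 and a median of -0.36. Of the 4, 1 (ERG12) was lower at an unadjusted p under 0.05 in limma, a share near the 23.5% of all genes.

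Downstream of mevalonate, the transcripts for isoprenoid synthesis held the largest fall among the sterol genes tested. IDI1, the isomerase of isopentenyl diphosphate (YPL117C), was at -0.68, 0.58 and -0.13 at 15 min. At 30 min it was at 0.0352, -0.78 and -0.71, and at 60 min at -0.93, -1.71 and -1.75. The arrays lay on both sides of 0 at 15 and 30 min, and all 3 were well below 0 at 60 min, with no overlap with either earlier time. IDI1 was 2.76-fold lower at 60 min than before freezing (-1.46 ± 0.30, adjusted p = 0.000544), and it passed without any 1 of the replicates (-1.73 to -1.32 on the log2 scale).

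ERG20, farnesyl diphosphate synthase (YJL167W), was at -0.24, -0.45 and 0.44 at 15 min, at 0.0001, -0.27 and -0.33 at 30 min, and at -0.53, -1.77 and -0.28 at 60 min. Replicate 2 at 60 min stood more than a log2 unit below the other arrays. The mean at 60 min was 1.81-fold lower than before freezing (-0.86 ± 0.30, adjusted p = 0.0288). Without replicate 2 it was -0.40 (adjusted p = 0.384), and the call also ended without replicate 1 (-1.02, 0.0731) or 3 (-1.15, 0.0523), with each array set to 1 median absolute deviation (-0.66, 0.113) and with array weights (-0.73, 0.0815). ERG9, squalene synthase, which commits farnesyl units to sterols, went the other way on most arrays at 60 min, at 0.88, 1.24 and -0.20 (0.64 ± 0.33, adjusted p = 0.134). At 15 min it was at 1.49, 0.56 and -0.22 and at 30 min at -0.79, 0.39 and 0.13, so its arrays spanned 0 at all 3 times.

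All 4 oxygen-requiring steps that were measured had a mean below 0 at 30 min and above 0 at 60 min. The 4 measured transcripts were those of ERG1, squalene epoxidase, ERG25, the methylsterol oxidase, ERG3, a sterol desaturase of the ring, and ERG5, a cytochrome P450 that desaturates the side chain. On the 60 min arrays all 12 values of these 4 genes were above 0, where 46.8% to 57.5% of all genes were below 0. On the 6 earlier arrays 21 of 24 values were below 0, where 48.8% to 52.9% of all genes were. Values of 1 gene or 1 array are not independent. At 15 and 30 min 0 of the 4 passed as lower, where 0.326% and 2.05% of all genes did. ERG5 at 15 min had a mean of 0.0035. The change from 30 to 60 min passed for 0 of the 4, and upward for 0% of all genes. At 60 min 2 of the 4 passed as higher and 0 as lower in limma, where 15.6% and 17.5% of all genes did. At an unadjusted p under 0.05, 3 of the 4 were higher, where 20.2% of all genes were.

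ERG3 (YLR056W) was at -0.65, -1.01 and -0.94 at 15 min, at -0.24, -0.14 and -0.56 at 30 min and at 0.63, 1.05 and 0.50 at 60 min. The 3 times did not overlap, each lying above the one before. It was 1.66-fold higher at 60 min than before freezing (0.73 ± 0.27, adjusted p = 0.0384), and at 15 min it was at -0.87 ± 0.27 (adjusted p = 0.101). The call at 60 min ended without replicate 1 (0.78, adjusted p = 0.108), 2 (0.57, 0.189) or 3 (0.84, 0.109), with each array set to 1 median absolute deviation (0.64, 0.104) and with array weights (0.68, 0.0815).

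ERG1 (YGR175C) was at -0.38, -0.19 and -0.29 at 15 min, at -0.47, -0.60 and 0.0257 at 30 min and at 0.16, 2.07 and 0.53 at 60 min. All arrays at 60 min lay above all earlier ones, with replicate 2 far above the other two. The mean at 60 min was 1.89-fold higher than before freezing (0.92 ± 0.31, adjusted p = 0.0235). Without replicate 2 it was 0.35 (adjusted p = 0.432) and without replicate 3 it was 1.12 (0.0813), while it passed without replicate 1 (1.30, 0.0270). It also missed the threshold with each array set to 1 median absolute deviation (0.81, adjusted p = 0.0656) and with array weights (0.83, 0.0549).

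ERG25 and ERG5 were also highest at 60 min, without passing the test, and had their lowest mean at 30 min. ERG25 (YGR060W) was at -0.21, -0.51 and -0.79 at 15 min, at -0.98, -0.29 and -0.88 at 30 min and at 0.28, 0.91 and 0.58 at 60 min (0.59 ± 0.28, adjusted p = 0.100). ERG5 (YMR015C) was at 0.11, -0.30 and 0.20 at 15 min, at -0.86, -0.34 and -0.0111 at 30 min and at 0.20, 0.48 and 1.03 at 60 min (0.57 ± 0.28, adjusted p = 0.117). For both genes every array at 60 min lay above every array at 15 and at 30 min. For ERG5 this was nearly a tie, with 0.2044 in replicate 1 at 60 min and 0.2005 in replicate 3 at 15 min.

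**Figure D2:**
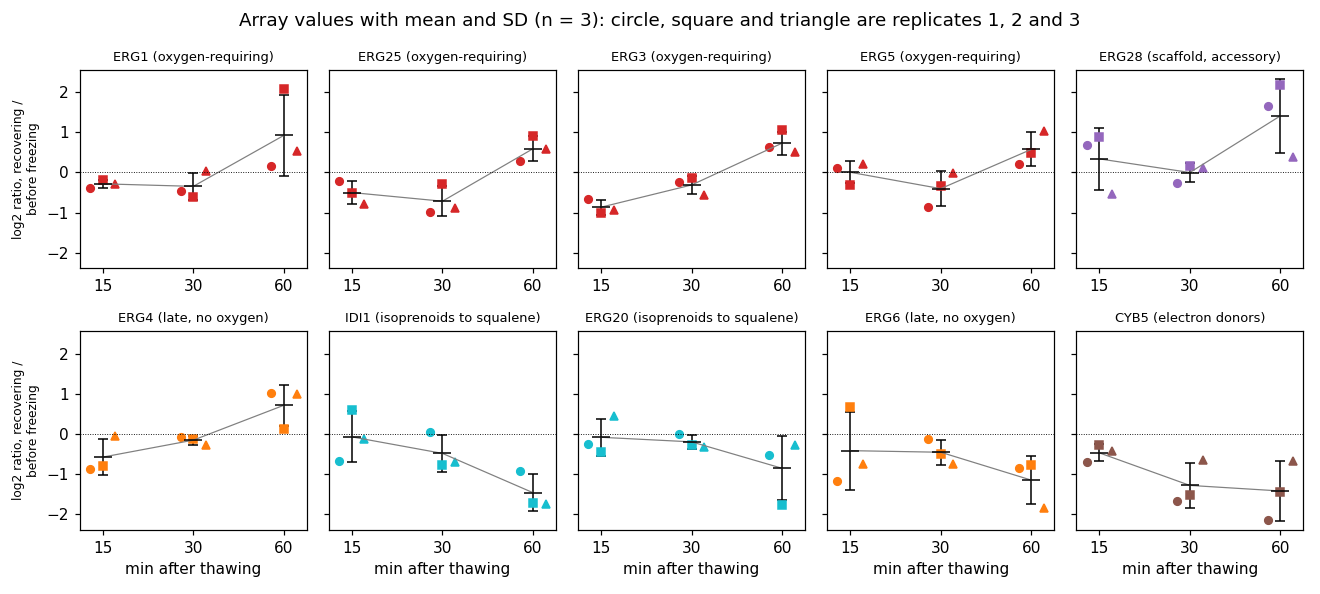
Log2 ratio (recovering over before freezing, vertical axis) against time after thawing for 10 sterol genes, with the mean and SD of 3 arrays in black and the arrays as symbols. ERG1, ERG25, ERG3, ERG5 and ERG4 are all above 0 at 60 min, where IDI1, ERG20, ERG6 and CYB5 are all below 0, and the arrays of ERG1, ERG28, ERG20, ERG6 and CYB5 are each spread over more than a log2 unit at that time.

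Among the late steps that use no oxygen, ERG4 shared this pattern and ERG6 went the other way. ERG6, the sterol methyltransferase that gives ergosterol its extra side-chain carbon (YML008C), was at -1.18, 0.68 and -0.75 at 15 min, at -0.13, -0.50 and -0.74 at 30 min and at -0.84, -0.77 and -1.84 at 60 min. All arrays at 30 and 60 min were below 0, and those at 60 min were below those at 30 min, as for 10.2% of all genes. The gap was narrow, with -0.7682 in replicate 2 at 60 min and -0.7398 in replicate 3 at 30 min. It was 2.22-fold lower at 60 min (-1.15 ± 0.32, adjusted p = 0.00741), and the call ended without replicate 3 (-0.80, adjusted p = 0.196).

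ERG4, the reductase of the last step (YGL012W), was at -0.87, -0.80 and -0.0607 at 15 min, at -0.0689, -0.12 and -0.28 at 30 min and at 1.03, 0.12 and 0.99 at 60 min. Its arrays at 60 min lay above all earlier ones, and its mean there missed the threshold (0.71 ± 0.28, adjusted p = 0.0528). It passed without replicate 2 (1.01, adjusted p = 0.0472), with each array centred on its median (0.76, 0.0396) and with a replicate block (0.71, 0.0245). The block leaves the mean as it was and takes the spread between replicate numbers out of the error. A test against 0 needs that spread, so the call under the block is weak evidence. The other members of the group had means near 0 at 60 min. ERG24, a sterol reductase, was at 0.29 ± 0.31, ERG26, a sterol dehydrogenase, at -0.0447 ± 0.29, ERG27, a keto reductase, at -0.0764 ± 0.30 and ERG2, a sterol isomerase, at -0.23 ± 0.31. Each of these 4 genes had replicate 2 below 0 and replicate 1 above 0 at 60 min. ERG26 had its lowest values at 15 min, at -1.37, -1.02 and -0.22 (-0.87 ± 0.29, adjusted p = 0.124). ERG7, the cyclase that makes lanosterol from epoxidised squalene, was at -0.26, -0.84 and -0.0382 at 15 min, at -1.73 and -0.0755 at 30 min (replicates 1 and 3) and at -0.60 and 0.44 at 60 min (replicates 1 and 3).

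Accessory proteins of the pathway held the largest rise and a fall nearly as large as that of IDI1. ERG28 (YER044C) encodes a membrane scaffold that holds the enzymes of sterol demethylation together. It was at 0.67, 0.88 and -0.54 at 15 min, at -0.27, 0.15 and 0.11 at 30 min and at 1.66, 2.18 and 0.39 at 60 min. Its arrays at 60 min were all above those at 30 min but overlapped those at 15 min. ERG28 was 2.66-fold higher at 60 min than before freezing (1.41 ± 0.32, adjusted p = 0.00167), which is the largest rise among the sterol genes tested. Without replicate 2 it was 1.02 (adjusted p = 0.0966), and it passed without replicate 1 or 3. ERG29, another endoplasmic reticulum protein of the pathway, was at 0.0145, 0.0502 and -0.13 at 60 min, close to 0 on all 3 arrays.

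CYB5 (YNL111C), cytochrome b5, passes electrons to sterol and fatty acid modifying enzymes of the endoplasmic reticulum. It was at -0.70, -0.28 and -0.43 at 15 min, at -1.67, -1.52 and -0.65 at 30 min and at -2.15, -1.45 and -0.66 at 60 min. All 9 arrays were below 0, and CYB5 was the 1 sterol gene that passed at 30 min. It was 2.43-fold lower at 30 min (-1.28 ± 0.30, adjusted p = 0.0106) and 2.68-fold lower at 60 min (-1.42 ± 0.30, adjusted p = 0.000776). At 60 min it passed without any 1 of the replicates. At 30 min the call ended without replicate 1 (-1.09, adjusted p = 0.163), 2 (-1.16, 0.176) or 3 (-1.60, 0.0514). The other electron donor, NCP1, the P450 reductase, was at -0.68, 0.67 and -0.50 at 30 min and had a single value at 60 min, -0.73 in replicate 2, so no test was made there.

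Storage and control of sterols were covered by few values, and none passed. ARE1, a minor sterol acyltransferase (YCR048W), was at -0.24, 0.17 and -0.19 at 30 min and at 0.59 and 0.18 at 60 min (replicates 2 and 3). ARE2, the main acyltransferase in aerobic cells (YNR019W), was at 0.29, -1.12 and -0.40 at 30 min and at -0.74 and -0.40 at 60 min (replicates 1 and 3). At 15 min each had 1 value, in replicate 3, of -0.0106 for ARE1 and -0.19 for ARE2. The values of both genes lay on both sides of 0 at 30 min.

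UPC2, the activator whose own level rises when sterols fall (YDR213W), was at -0.50 and -0.17 at 15 min (replicates 2 and 3), at 0.15, -0.50 and -0.35 at 30 min (-0.23 ± 0.28, adjusted p = 0.731) and at -0.23 and -0.65 at 60 min (replicates 2 and 3). Of its 7 values 6 were below 0. ECM22 (YLR228C) was at 0.37, 0.48 and -0.72 at 15 min (0.0412 ± 0.30, adjusted p = 0.962), at 0.12 and -0.12 at 30 min, and at 0.16 on 1 array at 60 min. Its values spread around 0. With at least 2 arrays required in place of 3, 0 of the 6 sterol genes added at 60 min (HMG1, ERG13, ERG7, ARE1, ARE2 and UPC2) passed in limma, and unadjusted p values were all above 0.05. UPC2 was then at -0.44 ± 0.34 (adjusted p = 0.362, n = 2) and HMG1 at -0.64 ± 0.35 (adjusted p = 0.190, n = 2).

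Set side by side, the oxygen-requiring steps and the steps up to squalene parted at 60 min. The median of the 4 oxygen-requiring genes was 0.24, 0.98 and 0.56 on the 3 arrays, against -0.55, -0.73 and -0.35 for the 8 or 9 measured genes from ERG10 to ERG9. The first median was higher by 0.80, 1.71 and 0.91. At 15 min the difference was -0.0069, -0.77 and -0.31 and at 30 min -0.43, -0.0927 and -0.0835, over 5 to 9 genes up to squalene. The order of the groups on the 60 min arrays was thus opposite to that on the 6 earlier arrays. The gap at 60 min was not limited to oxygen-requiring steps. The late steps without oxygen had medians of 0.51, -0.62 and 0.0708 there, also above those up to squalene on all 3 arrays. On replicate 1 their median was above the oxygen-requiring one, and on replicates 2 and 3 below it. The direction of the oxygen-requiring and the up-to-squalene median of gene means at 60 min was the same in all 11 alternative analyses. Some of these left both medians unchanged, at 0.66 and -0.45, and so add nothing to that agreement. They were every spot on its own, the lowest value taken as missing, the replicate block and the platform block. These medians describe the chosen genes and were not tested.

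**Figure D3:**
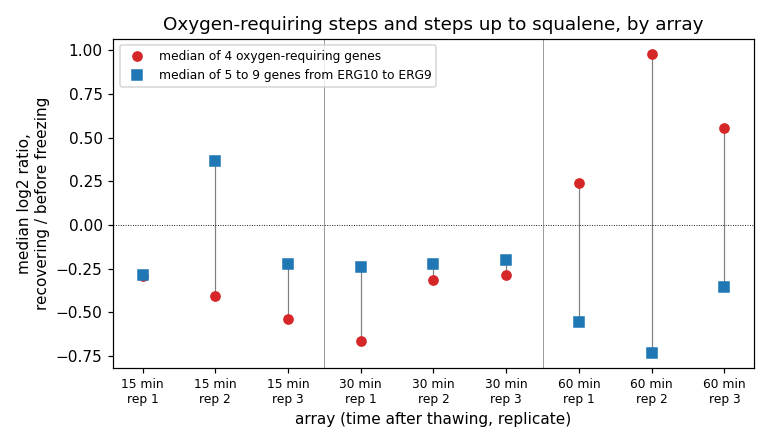
Median log2 ratio (recovering over before freezing, vertical axis) of 4 oxygen-requiring genes (red circles) and of the 5 to 9 measured genes from ERG10 to ERG9 (blue squares) on each of the 9 arrays. The red circles are above the blue squares by 0.80 to 1.71 on the 60 min arrays and below them on the others, with differences of -0.77 to -0.0069.

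The change between time points was tested within the same fit. From 15 to 60 min, 1 of 17 tested sterol genes rose and 1 fell, where 2.41% of all genes rose and 3.37% fell. ERG3 was 3.02-fold higher at 60 than at 15 min (1.60 ± 0.38, adjusted p = 0.0169). IDI1 was 2.62-fold lower at 60 than at 15 min (-1.39 ± 0.42, adjusted p = 0.0480). Both calls ended without any 1 of the replicates, at 1.36 to 1.75 for ERG3 (adjusted p = 0.100 to 0.236) and -1.96 to -0.94 for IDI1 (adjusted p = 0.0811 to 0.387). With each array set to 1 median absolute deviation ERG3 was at 1.65 (adjusted p = 0.0792) and IDI1 at -1.13 (0.200). IDI1 also missed the threshold in 5 other analyses (adjusted p = 0.0539 to 0.0820).

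ERG4 (1.29 ± 0.40, adjusted p = 0.0529), ERG1 (1.21 ± 0.44, adjusted p = 0.0919) and ERG25 (1.09 ± 0.39, adjusted p = 0.0891) were the next sterol genes upward. ERG5 was at 0.57 ± 0.40 (adjusted p = 0.383). At an unadjusted p under 0.05, 5 of the 17 were higher and 2 lower (IDI1 and CYB5), where 11.8% and 12.8% of all genes were. Arrays at 60 min lay wholly above those at 15 min for 5 of 17 genes (ERG1, ERG25, ERG3, ERG5 and ERG4), as for 13.6% of all genes, and wholly below for IDI1 (12.6% of all genes). ERG5 is among the 5 by a near tie, at 0.2044 against 0.2005.

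From 30 to 60 min 0 of 20 sterol genes passed in limma, as did 0% of all genes upward and 0.0407% downward (1 gene). At an unadjusted p under 0.05, 6 of the 20 were higher and 1 lower at 60 min, where 5.58% and 5.33% of all genes were. The 6 were ERG28 (1.41 ± 0.46), ERG25 (1.31 ± 0.39), ERG1 (1.27 ± 0.44), ERG3 (1.04 ± 0.38), ERG5 (0.98 ± 0.40) and ERG4 (0.87 ± 0.40), with adjusted p of 0.279 to 0.433, and the 1 lower was IDI1 (-0.98 ± 0.42, adjusted p = 0.410). With the replicate number as a block, ERG28 passed (adjusted p = 0.0400), 1 of 20, where 18 of all 2457 genes rose and 15 fell. Arrays at 60 min lay wholly above those at 30 min for the same 6 genes, or 30% of the 20, against 6.11% of all genes. They lay wholly below for IDI1 and ERG6, or 10% of the 20, against 10.2% of all genes. ERG6 is counted there by a narrow gap, at -0.7682 against -0.7398. From 15 to 30 min 0 of 17 passed, as did 0% of all 1853 genes tested. At an unadjusted p under 0.05, 0 of the 17 were called, where 1.51% of all genes were higher and 1.3% lower. Arrays at 30 min lay wholly above those at 15 min for ERG3 alone (5.88% of all genes) and wholly below for 0 of the 17 (3.83%). The comparisons with 15 and with 30 min share the arrays at 60 min.

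**Figure D4:**
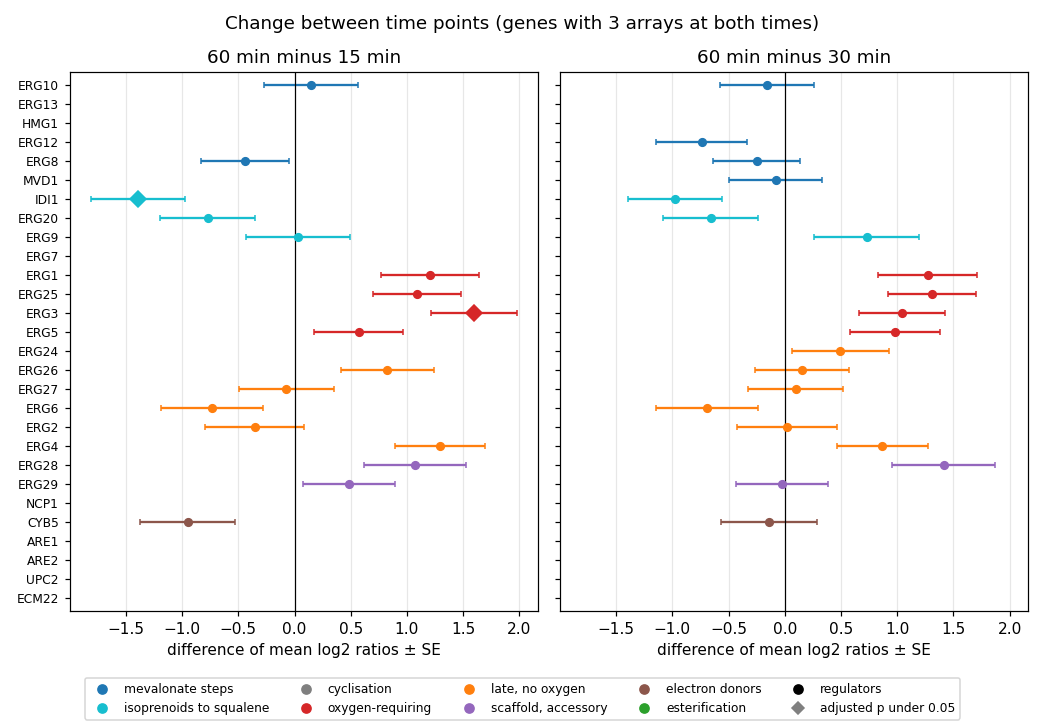
Difference of mean log2 ratios between 60 and 15 min (left) and between 60 and 30 min (right), with limma standard errors, for the sterol genes with 3 arrays at both times; diamonds passed at an adjusted p under 0.05. The 4 oxygen-requiring genes lie between 0.57 and 1.60 in both panels, and IDI1 is at -1.39 and -0.98.

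Genes around the pathway were taken from lists of sterol transport, ester hydrolysis, isoprenoid branches, reductase turnover, heme synthesis, sphingolipids and their regulators. Of 81 such genes on the arrays, 0 of 32 tested at 15 min and 0 of 54 at 30 min passed in limma (2 and 9 at an unadjusted p under 0.05). Of all genes 0.838% passed as higher and 0.326% as lower at 15 min, and 2.29% and 2.05% at 30 min. At the unadjusted level 375 of all 2148 genes were called at 15 min and 609 of 3320 at 30 min. At 60 min 12 of 49 were higher (24.5%) and 9 lower (18.4%), where 15.6% of all genes were higher and 17.5% lower. The counts below, list by list, rest on few genes and are to be read against those shares. In sterol uptake and transport 2 of 6 tested genes rose and 1 fell. KES1, an oxysterol-binding protein that exchanges sterol for a phosphoinositide, was at -1.32, -0.82 and -1.42 (-1.19 ± 0.29, adjusted p = 0.00289), and its call ended without replicate 3 (-1.07, adjusted p = 0.0757). OSH7, a lipid transfer protein of the same family, was at 0.92, 1.39 and 0.29 (0.87 ± 0.29, adjusted p = 0.0233). Its call ended without replicate 1 (0.84, 0.112) or 2 (0.60, 0.192). NPC2, a sterol carrier of the vacuole, was at 1.28, 0.55 and 0.59 (0.80 ± 0.29, adjusted p = 0.0339), and its call ended without replicate 1 (0.57, 0.243), 2 (0.93, 0.0846) or 3 (0.91, 0.102). With each array set to 1 median absolute deviation the calls of OSH7 and NPC2 also ended (adjusted p = 0.0812 and 0.132), as they did with array weights (0.0701 and 0.0656).

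Heme is the cofactor of Erg11, Erg5 and cytochrome b5, and its synthesis genes moved both ways, 3 higher and 2 lower of 6 tested at 60 min. Of all genes 15.6% were higher and 17.5% lower at that time. HEM13, coproporphyrinogen oxidase, an oxygen-using enzyme whose gene is known to be induced when oxygen or heme is short, was at -2.61, -1.84 and -2.14. It was 4.58-fold lower at 60 min (-2.20 ± 0.32, adjusted p = 1.73e-05) and passed without any 1 of the replicates. HEM3, porphobilinogen deaminase, was at -2.06, -0.99 and -0.88 (-1.31 ± 0.31, adjusted p = 0.00223). Without replicate 1 it was at -0.93 (adjusted p = 0.0875). HEM12 (0.96 ± 0.28) and HEM2 (0.93 ± 0.29), other enzymes of the pathway, were higher (adjusted p = 0.0108 and 0.0168). Their calls ended without replicate 1 (0.98 and 0.86, adjusted p = 0.0657 and 0.0946) or 2 (0.68 and 0.71, adjusted p = 0.137 and 0.176). That of HEM2 also ended with each array set to 1 median absolute deviation (0.78, adjusted p = 0.0656) and with array weights (0.81, 0.0539).

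Among the regulators of oxygen, heme and sterol genes 1 of 3 tested was higher and 1 lower at 60 min. DAP1, a heme-binding partner of the sterol P450 enzymes, was at 0.99, 1.39 and 0.46 (0.95 ± 0.27, adjusted p = 0.00974). SUT2, a zinc-cluster factor related to the sterol uptake regulator SUT1, was at -1.01, -1.74 and -0.32 (-1.02 ± 0.30, adjusted p = 0.0104). Both calls ended without replicate 1 (0.92 and -1.03, adjusted p = 0.0703 and 0.0688) or 2 (0.73 and -0.67, adjusted p = 0.108 and 0.176). That of SUT2 also ended with each array set to 1 median absolute deviation (-0.78, adjusted p = 0.0546).

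In turnover of HMG-CoA reductase 1 of 8 tested genes was higher and 1 lower at 60 min. NSG2, a relative of the mammalian INSIG proteins, was at 1.20, 1.67 and 0.47 (1.11 ± 0.28, adjusted p = 0.00406), and without replicate 2 at 0.84 (adjusted p = 0.0871). YOS9, a lectin of glycoprotein degradation in the endoplasmic reticulum, was at -2.22, -1.60 and -1.40 (-1.74 ± 0.28, adjusted p = 3.93e-05), and it passed without any 1 of the replicates. In the isoprenoid branches 1 of 7 was higher and 0 lower. That gene, RAM2, the shared subunit of protein prenyltransferases that use farnesyl and geranylgeranyl groups, was at 1.48, 1.47 and 0.56 (1.17 ± 0.29, adjusted p = 0.00316). Its call ended without replicate 1 (1.01, adjusted p = 0.0556) or 2 (1.02, 0.0609). Of 3 tested genes of sterol ester hydrolysis and acetylation 0 passed in limma, also without adjustment, with means from -0.26 to 0.0184.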

How the data were processed

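The deposited values are log2 ratios, 1 per spot and array, which the authors normalized by LOWESS on spots with flag value 0, per the labels. No source used here gives the scanner, image software or background correction, and the number of arrays limits the precision. The log base was read from the lowest value, the log2 of 0.01. Spots were named through the platform annotation, updated through the RefSeq table of assembly R64, which served for names only; no sequences or positions are given. Each sterol gene had 1 spot per platform. The 9 arrays were fitted together in limma 3.58.1 (R 4.3.3), with 1 mean per time point, two-sided tests and Benjamini-Hochberg adjustment over all genes tested. Missing values were not filled in. Deviations of same-numbered arrays from their time's mean correlated at 0.14 to 0.47 in all 3 pairs of 30 and 60 min, so the replicate block is given beside that comparison. The fit was tested on simulated data. The 11 alternatives changed the values required, centring, scale, weights, the lowest value, spot averaging, blocks, or left out 1 replicate number. The members and lists were chosen with earlier results of these data known. Genes outside the set were named by rule, up to 4 per list by size at 60 min among those that passed.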

Additional observations from a re-analysis of the deposited data

Results flagged for a closer look

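For ERG3 and IDI1 the difference between 2 recovery times itself passed the test. ERG3 was higher at 60 than at 15 min by 1.60 ± 0.38 on the log2 scale (limma adjusted p = 0.0169), on 3 of 3 arrays against all 3 arrays at 15 min. IDI1 differed by -1.39 ± 0.42 (adjusted p = 0.0480), with the 3 arrays at 60 min below all 3 at 15 min. Such a lack of overlap was seen upward for 13.6% of all genes and downward for 12.6%. Neither call held with any 1 replicate left out. Of the 11 alternatives, ERG3 passed in 7 and IDI1 in 2. Groups of 3 arrays were not searched for single outlying samples.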

How the results depend on the processing

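Of 118 member values per alternative, 110 to 118 stayed on the same side of the threshold, and 0 that passed in either fit changed sign. Values that passed in neither fit were counted as unchanged even where their sign turned. With median centring 10 of 20 means at 60 min were above 0, against 8 as reported. Counts of sterol genes that passed moved as follows, and the cause was not tested. With each array set to 1 median absolute deviation, the counts were 1 lower at 15 min (ERG3; 0 as reported), 1 higher and 3 lower at 60 min (without ERG1, ERG3 and ERG20; 3 and 4 as reported) and 0 higher and 0 lower between 60 and 15 min (1 and 1 as reported). With array weights they were 3 lower at 30 min (CYB5, ERG25 and IDI1; 1 as reported), 1 higher and 3 lower at 60 min (without the same 3 genes) and 0 lower between 60 and 15 min. The last count was also 0 with at least 2 arrays required, with median centring, with every spot on its own and with a platform block. Taking the lowest deposited value as missing changed no call. The counts over all genes moved under these settings too. With array weights 412 of 3320 genes were lower at 30 min, a share near 3 of 25. At 60 min 335 of 2952 were higher and 427 lower. With each array set to 1 median absolute deviation, 18 of 2148 genes were lower at 15 min. At 60 min 274 of 2952 were then higher and 245 lower. Between 60 and 15 min 2 of 1871 rose and 2 fell.

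Leaving out 1 replicate number at a time, which also lowers the number of arrays, gave 0 lower at 30 min, 1 to 2 higher and 2 to 3 lower at 60 min, and 0 higher and 0 lower between 60 and 15 min. Leaving out replicate 1 is the same fit as the second platform alone.

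With a replicate block, 8 calls were gained: 2 sterol genes were lower at 15 min (ERG26 and ERG3), 4 were higher at 60 min (with ERG4; 3 as reported), 5 were higher between 60 and 15 min (ERG1, ERG25, ERG28, ERG3 and ERG4) and 1 between 60 and 30 min (ERG28; 0 as reported). Among all genes the block gave 73 of 2144 lower at 15 min and 574 of 2934 higher at 60 min. It gave 131 of 1871 higher between 60 and 15 min and 18 of 2457 between 60 and 30 min. Deviations of same-numbered arrays correlated above 0.1 in 7 of 9 pairs, with the others, of 15 min replicate 1, at 0.0392 and 0.022. The numbers were therefore not taken as pairs for 15 min, and no label gives them as pairs, so a call gained under the block is a hint from the data. In the tests against 0 the block also takes the spread between replicate numbers out of the error. Such a test needs that spread, so the calls gained against 0 are weaker still.

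Over all genes, the counts of higher and lower genes moved by more than 1.5 times in places. At 15 min they were 18 and 7 as reported, 12 and 2 with median centring, and 0 to 88 and 0 to 73 over all 11 alternatives. At 30 min they were 76 and 68, and 16 to 244 and 4 to 412 over the alternatives. At 60 min they were 461 and 518, and 206 to 574 and 241 to 653. Between 60 and 15 min they were 45 and 63, and 0 to 131 and 0 to 160, and between 60 and 30 min 0 and 1, and 0 to 18 and 0 to 15. Missing values limit the tests, since 19, 25 and 20 of 28 sterol genes had all 3 arrays at 15, 30 and 60 min, and ARE1, ARE2, UPC2 and ECM22 could be tested on 3 arrays at 1 time at most.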

Other observations

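Sphingolipids associate with ergosterol in the plasma membrane, and their synthesis genes changed in both directions at 60 min, with 4 of 16 tested higher and 4 lower (25% each), where 15.6% of all genes were higher and 17.5% lower. SCS7, which hydroxylates the fatty acid of ceramide with oxygen and carries a cytochrome b5 domain of its own, was at 1.43, 1.48 and 0.40 (1.10 ± 0.29, limma adjusted p = 0.00545). SUR2, which hydroxylates the sphingoid base with oxygen, was at -0.16, -1.08 and -2.18 (-1.14 ± 0.36, adjusted p = 0.0183). These oxygen-using hydroxylases thus lay on opposite sides of 0 on all 3 arrays. IPT1, which adds the last headgroup of the complex sphingolipids, was at -0.97 ± 0.30 and TSC10, a reductase of the sphingoid base, at 0.87 ± 0.31 (adjusted p = 0.0137 and 0.0312). The call of SCS7 ended without replicate 1 (0.94, adjusted p = 0.0727) or 2 (0.92, 0.111), that of SUR2 without replicate 2 (-1.17, 0.131) or 3 (-0.62, 0.382), that of IPT1 without replicate 1 (-0.79, 0.112) or 3 (-0.88, 0.140) and that of TSC10 without replicate 1 (0.49, 0.349) or 2 (0.72, 0.263). With each array set to 1 median absolute deviation the calls of SUR2, IPT1 and TSC10 ended (adjusted p = 0.0667, 0.0656 and 0.119), as did that of TSC10 with array weights (0.131).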
